A study of Rattus norvegicus with 12 samples.

Results

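Lysozyme, S100 and secretory inhibitor genes were followed across the cells of the healthy rat liver as 10 named genes of the 32883 in the count tables: Lyz2 (ENSRNOG00000005825), Lyc2 (ENSRNOG00000034139), S100a4, S100a6, S100a8, S100a9, S100a11, Slpi, Anxa1 and Cst3. The genes were listed by name with earlier results of these libraries known, and they were chosen by their measured levels over cell classes, strains and platforms. Their levels by cell class, and Lyc2 set against Lyz2, are therefore given as a description without a test. Strain differences within a class are given from fits across all genes, with p-values adjusted over all genes tested, and because strain levels were known when the 10 genes were chosen, these p-values are no independent support for any of them.

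Lysozymes cleave the peptidoglycan of bacterial cell walls and are made in quantity by monocytes, macrophages and neutrophils, and rodents carry more than 1 lysozyme C gene. S100 proteins are small calcium-binding proteins, of which S100a8 and S100a9 pair into calprotectin, an abundant metal-binding protein of the neutrophil cytosol, while S100a4, S100a6 and S100a11 bind cytoskeletal proteins and annexins. Slpi (secretory leukocyte peptidase inhibitor) blocks neutrophil serine proteases, Cst3 (cystatin C) blocks cysteine cathepsins and is rich in antigen-presenting cells, and Anxa1 (annexin A1) binds membranes with calcium and signals through formyl peptide receptors.

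The series holds 12 libraries of healthy male rats. Total liver homogenates (TLH), cells freed by 2-step collagenase digestion, came from 2 Dark Agouti (DA) and 2 Lewis (LEW) rats on 10x 3' version 2 chemistry. Immune-enriched cells (additional washes and red cell depletion; 1 library per strain) and nuclei (2 additional livers per strain) were on version 3, and 2 liver sections of Wistar rats were measured on Visium. The series text gives TLH donors of 8 to 10 weeks, the names of the deposited tables give 10 weeks for DA and 13 weeks for LEW, and the study's methods give an older age and state that the strains were age matched. These sources differ, so whether a strain difference is also an age difference cannot be told apart here. No group carried a transgene or a treatment.

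After the filters on cells, the TLH libraries held 3844 to 7112 cells (median 1794 to 2546 UMIs), the immune-enriched libraries 1163 and 2677 cells, the nuclei libraries 2205 to 5262 nuclei (median 1542 to 2059 UMIs) and the sections 2437 and 2404 spots. A UMI is 1 captured transcript end, so levels are given as counts per 1000000 UMIs of the class (CPM) with no scaling by length. Cells were clustered without the 10 genes and named from marker lists that hold none of them, as Lyz2 myeloid-like (MHC class II, monocyte, dendritic or neutrophil genes; 547 TLH cells, 209 immune-enriched cells and 43 nuclei), Kupffer-like, lymphoid-like, hepatocyte-like, endothelial-like and mesenchymal-like. No class of nuclei was lymphoid-like. Transcripts of hepatocytes reached every TLH class: the hepatocyte marker list (26 of 26 genes seen) took 7.39 to 12.6% of the UMIs of the other named classes, against 12.8 to 14.5% in hepatocyte-like cells.

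Lyz2 and Lyc2 lie on opposite strands of chromosome 7, and the bases before their starts are shown because the levels of these 2 lysozyme genes part between cell classes. The 100 bases before each start are from RefSeq (build GRCr8), 5′ to 3′ on the strand of the gene, at chr7:54798012-54798111 (minus strand) for Lyz2 and chr7:54772909-54773008 (plus strand) for Lyc2, and capitals mark the 39 bases next to the start that are the same in both genes.
Lyz2: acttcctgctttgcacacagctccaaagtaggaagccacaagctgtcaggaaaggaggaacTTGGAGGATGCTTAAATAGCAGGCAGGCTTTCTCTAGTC
Lyc2: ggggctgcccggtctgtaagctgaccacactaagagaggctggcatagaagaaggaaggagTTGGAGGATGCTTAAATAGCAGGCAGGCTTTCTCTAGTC
The first 50 bases after the start were also the same at 50 of 50 positions, whereas of the 211 bases further upstream 45 (21.3%) were the same. Bases were compared position by position without gaps, so an inserted or missing base would lower the upstream count. Of 33469 promoters in the RefSeq table, 2 held the shared run of 39 bases, those of Lyc2 and Lyz2. The letters TTAAATA within it, a TATA-like stretch, were found on either strand of 1392 promoters (4.16%). Because the 2 genes are close paralogs, reads that match both could have been split or left out by the authors' counting, and the division of UMIs between them is uncertain to that extent.

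Lyz2 stood highest in the Lyz2 myeloid-like class on each of the 3 platforms. In TLH cells of that class it stood at 728 and 829.8 CPM in the DA rats and 3809.7 and 3092 CPM in the LEW rats, and in Kupffer-like cells, the resident macrophages, at 42.2 and 13.9 CPM in the DA rats and 48.7 and 69.5 CPM in the LEW rats. The lowest myeloid value was above the highest Kupffer value, and the mean over the 4 rats was 2115 CPM against 43.6 CPM. Below them, mesenchymal-like (8.57 to 21.3 CPM), endothelial-like (5.51 to 10.4 CPM), hepatocyte-like (4.38 to 8.78 CPM) and lymphoid-like TLH cells (0 to 10.9 CPM) overlapped their neighbours in the order, and mesenchymal-like also overlapped Kupffer-like cells. In the immune-enriched libraries Lyz2 stood at 4401 CPM in the DA library and 5229 CPM in the LEW library in Lyz2 myeloid-like cells and at 34.3 and 35.4 CPM in Kupffer-like cells. In nuclei it stood at 677 and 1712 CPM in the DA rats and 457 and 3363 CPM in the LEW rats, from 7 to 15 nuclei per rat. Single nuclei gave 6 of 9 and 27 of 40 of these UMIs in the DA libraries and 12 of 12 and 37 of 64 in the LEW libraries. With each TLH cell thinned to 1000 UMIs, 29.5 to 56.5% of Lyz2 myeloid-like cells had a Lyz2 UMI (46.4 to 70.6% before thinning), against 0.595 to 0.931% of hepatocyte-like cells, whose medians of 1819 to 2619 UMIs compare with 2013 to 3135 UMIs.

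**Figure D1:**
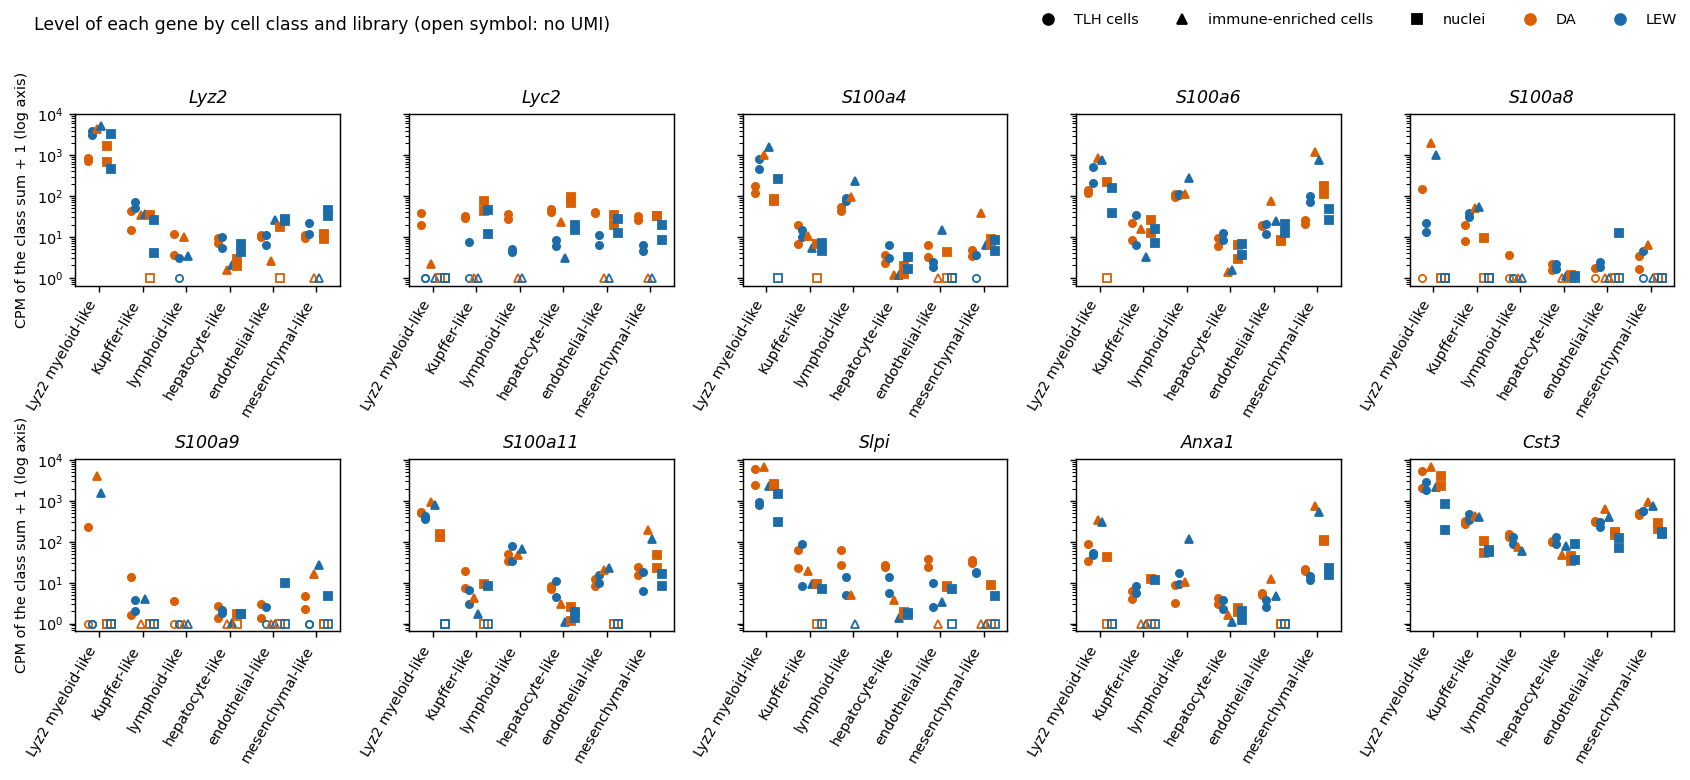
Level of each of the 10 genes, as CPM + 1 of the class sum on a log axis, in the 6 cell classes; each point is 1 library, its shape gives the platform, its colour the strain, and an open point had no UMI. Lyz2, S100a4, S100a11, Slpi and Cst3 stand highest, by the mean over libraries, in Lyz2 myeloid-like cells on the 3 platforms, whereas Lyc2 does not. In nuclei S100a4, S100a11 and Cst3 overlap the mesenchymal-like class.

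Lyc2 followed hepatocytes instead. In hepatocyte-like cells of the immune-enriched libraries, which had been washed further, it stood at 22.5 CPM in DA and 2.10 CPM in LEW, and the other five classes together held 1 Lyc2 UMI among 3491303 in DA and 0 among 4418268 in LEW. In these libraries Lyc2 was seen in 28.2% of DA and 4.03% of LEW hepatocyte-like cells, against 0 of 305 and 0 of 195 lymphoid-like cells. Median depth in hepatocyte-like cells was 5509 UMIs in DA and 13359 UMIs in LEW, and in lymphoid-like cells 3777 and 3907 UMIs. With cells thinned to 1000 UMIs the hepatocyte shares came to 0.806 and 0.372%.

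In TLH libraries the same contrast was shallow. Lyc2 stood at 48.0 and 40.4 CPM in hepatocyte-like cells of the DA rats and at 34.3 and 31.2 CPM in the other five classes. In the LEW rats it stood at 7.65 and 5.04 CPM against 5.14 and 3.50 CPM. Each TLH library thus held 1.29 to 1.49 times more Lyc2 in hepatocyte-like cells, beside the hepatocyte marker shares given above, whose part in the Lyc2 level of the other classes was not tested. In nuclei Lyc2 stood at 65.4 and 92.7 CPM in the DA rats and 18.7 and 13.8 CPM in the LEW rats in hepatocyte-like nuclei, against 26.4, 42.5, 30.4 and 9.81 CPM in the other classes in the same order of rats. In the first LEW nuclei library the other classes were the higher, on 28 UMIs.

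The division of lysozyme UMIs between both genes turned over between these classes. Lyc2 took 85.3% (exact 95% interval 81.8 to 88.3%) and 86.6% (exact 95% interval 83.6 to 89.3%) of the Lyz2 and Lyc2 UMIs of hepatocyte-like TLH cells in the DA rats, and 63.6% (exact 95% interval 54.6 to 71.9%) and 36.5% (exact 95% interval 26.9 to 46.9%) in the LEW rats. In hepatocyte-like nuclei it took 98.6% (exact 95% interval 96.5 to 99.6%) and 98.1% (exact 95% interval 96.5 to 99.1%) in DA and 76.2% (exact 95% interval 70.4 to 81.5%) and 80.4% (exact 95% interval 71.4 to 87.6%) in LEW. In the immune-enriched libraries it took 97.4% (exact 95% interval 92.7 to 99.5%) in DA and 67.6% (exact 95% interval 57.7 to 76.6%) in LEW. The LEW share lay under the DA share on each of the 3 platforms. In Lyz2 myeloid-like cells Lyc2 took 5.00 and 2.21% in the DA TLH rats, 0 of 1067 and 0 of 992 UMIs in the LEW rats, 1 of 3564 and 0 of 2693 UMIs in the immune-enriched libraries, and no UMI in the nuclei. With deeper cells alone the mean share in the DA TLH rats was 7.25%, against 3.604% over all cells of the class. Kupffer-like TLH cells had Lyc2 shares of 42.9 and 66.2% in DA and 11.7 and 0% in LEW, and held no Lyc2 among 21 and 48 lysozyme UMIs in the immune-enriched libraries. In Kupffer-like nuclei Lyc2 gave 5 of 9 and 13 of 13 lysozyme UMIs in DA and 15 of 16 and 3 of 10 in LEW. Intervals here and throughout cover counting error only, since cells of 1 library share their source.

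**Figure D2:**
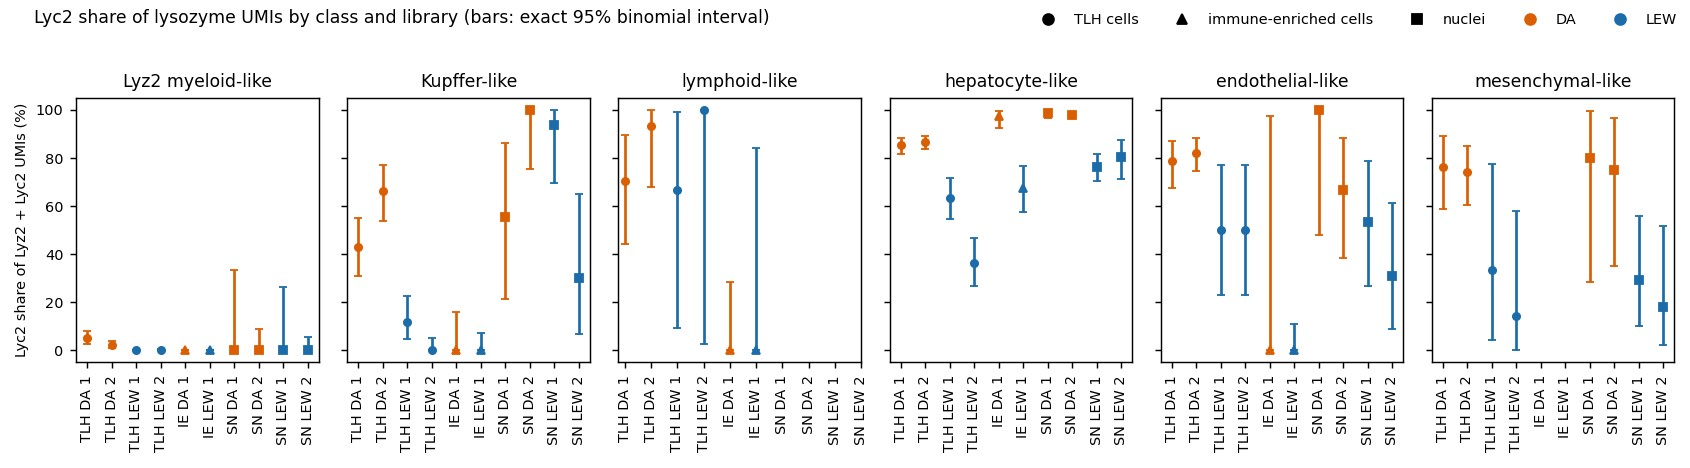
Lyc2 as a percentage of the Lyz2 and Lyc2 UMIs (vertical axis) of each class in each library, with exact 95% binomial intervals; colour gives the strain and shape the platform, and classes without lysozyme UMIs are left blank. Hepatocyte-like points run from 36.5 to 98.6%, and Lyz2 myeloid-like points from 0 to 5.00%.

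The calprotectin pair, S100a8 and S100a9, came from few cells in the Lyz2 myeloid-like class. In TLH Lyz2 myeloid-like cells S100a8 stood at 0 and 149.9 CPM in the DA rats and 21.4 and 12.5 CPM in the LEW rats and S100a9 at 0 and 227 CPM in the DA rats and 0 and 0 CPM in the LEW rats. All 88 S100a8 and all 133 S100a9 UMIs of the second DA rat came from 1 cell, so the class has no calprotectin level that the 4 rats share. In the immune-enriched Lyz2 myeloid-like cells S100a8 stood at 2014 CPM in the DA library and 982 CPM in the LEW library and S100a9 at 4046 CPM in the DA library and 1539.7 CPM in the LEW library. The nuclei of this class held no UMI of either gene.

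S100a8 was also counted in Kupffer-like cells, with fewer S100a9 UMIs. It stood at 19.0 and 6.97 CPM in the DA rats and 29.4 and 38.4 CPM in the LEW rats in TLH cells and at 50.6 and 52.4 CPM in the immune-enriched DA and LEW libraries. S100a9 in the same Kupffer-like cells gave 12, 1, 3 and 1 UMIs in the TLH rats and 0 and 4 UMIs in the immune-enriched libraries, where S100a8 gave 31 and 71. Among the Kupffer-like TLH subclusters, the one led by Marco, Lgals3 and Ccl6 held the highest S100a8 level, at 61.0 and 29.5 CPM in DA and 79.4 and 118 CPM in LEW. Lymphoid-like cells, in contrast, held 1 S100a8 UMI over the 6 cell libraries.

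S100a4, S100a6 and S100a11 were spread more widely over leukocytes. S100a4 stood at 179 and 121 CPM in the DA rats and 799.8 and 461 CPM in the LEW rats in Lyz2 myeloid-like TLH cells, at 41.3 to 86.9 CPM in lymphoid-like cells and at no more than 19.0 CPM in the other named TLH classes. S100a6 stood at 140.4 and 119 CPM in the DA rats and 507 and 209 CPM in the LEW rats in Lyz2 myeloid-like TLH cells, at 91.7 to 111 CPM in lymphoid-like cells and at 19.7 to 99.5 CPM in mesenchymal-like cells. S100a11 stood at 513 and 549 CPM in the DA rats and 436 and 355 CPM in the LEW rats in Lyz2 myeloid-like TLH cells and at 32.2 to 79.6 CPM in lymphoid-like cells. In all 3 genes the lowest myeloid value was above the highest lymphoid value, whereas lymphoid and mesenchymal S100a6 overlapped.

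In the immune-enriched libraries S100a6 had another order and stood at 1205 CPM in the DA library and 775 CPM in the LEW library in mesenchymal-like cells and at 874 CPM in the DA library and 749 CPM in the LEW library in Lyz2 myeloid-like cells, whose ranges overlapped. Of the mesenchymal LEW value, 184 of its 293 UMIs came from 1 cell of 40. In nuclei S100a6 was at 171 and 112 CPM in the DA rats and 48.4 and 25.2 CPM in the LEW rats in mesenchymal-like nuclei.

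The inhibitors Slpi and Cst3 were the most abundant of the 10 genes in Lyz2 myeloid-like TLH cells of the DA rats. Slpi stood at 2443 and 5916 CPM in the DA rats and 925 and 804 CPM in the LEW rats, and in Kupffer-like cells at 62.2 and 22.1 CPM in the DA rats and 85.5 and 7.26 CPM in the LEW rats. Slpi in Kupffer-like cells overlapped lymphoid-like (4.08 to 63.3 CPM), mesenchymal-like (15.99 to 34.5 CPM), endothelial-like (1.57 to 36.6 CPM) and hepatocyte-like cells (4.66 to 25.5 CPM). In the first LEW rat 79 of its 93 UMIs in Kupffer-like cells and 148 of its 259 UMIs in Lyz2 myeloid-like cells came from single cells. In Lyz2 myeloid-like nuclei Slpi stood at 2556 and 2311 CPM in the DA rats and 305 and 1471 CPM in the LEW rats, and at no more than 8.19 CPM in any other named class of nuclei. Cst3 stood in the same nuclei at 3984 and 2311 CPM in the DA rats and 190.5 and 841 CPM in the LEW rats, above Slpi in the first DA rat, level with it in the second and below it in both LEW rats. Single nuclei gave 31 of the 34 Slpi UMIs and 44 of the 53 Cst3 UMIs of the first DA rat and all 8 Slpi UMIs of the first LEW rat.

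Cst3 was the one gene of the 10 with a level above 85 CPM in every named TLH class and library. It stood at 2094 and 5302 CPM in the DA rats and 1889 and 2880.4 CPM in the LEW rats in Lyz2 myeloid-like cells, 454 to 583 CPM in mesenchymal-like, 279 to 480.5 CPM in Kupffer-like, 236 to 317 CPM in endothelial-like, 87.8 to 152 CPM in lymphoid-like and 85.2 to 131 CPM in hepatocyte-like cells. Kupffer-like and endothelial-like cells overlapped, as did Kupffer-like and mesenchymal-like, and lymphoid-like and hepatocyte-like cells. With TLH cells thinned to 1000 UMIs, 40 to 67.8% of Lyz2 myeloid-like and 8.38 to 11.7% of hepatocyte-like cells had a Cst3 UMI (61.2 to 85.6 and 16.9 to 25.9% before thinning).

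The class with the highest mean Anxa1 differed by platform. It stood at 33.2 and 86.9 CPM in the DA rats and 53.6 and 46.8 CPM in the LEW rats in Lyz2 myeloid-like TLH cells and at 10.7 to 21.0 CPM in mesenchymal-like TLH cells, which did not overlap. In the immune-enriched libraries the mesenchymal-like cells were the higher, at 772 CPM in the DA library and 537 CPM in the LEW library, against 333 CPM in the DA library and 303 CPM in the LEW library in Lyz2 myeloid-like cells, and 111 of its 203 UMIs of the LEW mesenchymal value came from 1 cell. In mesenchymal-like nuclei Anxa1 stood at 101 and 112 CPM in the DA rats and 22.4 and 14.4 CPM in the LEW rats. Both DA rats were above both LEW rats there, on 13, 21, 6 and 4 UMIs. Lyz2 myeloid-like nuclei held 1 Anxa1 UMI over all rats (0 to 42.8 CPM), and the ranges of these classes overlapped.

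Within the Lyz2 myeloid-like class of the immune-enriched libraries, 4 subclusters differed in which of these genes stood highest, while S100a6 and S100a11 stood at 413 CPM or more in both libraries in 3 of them. A neutrophil-like subcluster led by Ifit1bl, Retnlg and Mmp8 (16 DA and 10 LEW cells) held S100a9 at 114735 CPM in DA and 54438 CPM in LEW, S100a8 at 57105 CPM in DA and 34667 CPM in LEW and Lyz2 at 23928 CPM in DA and 21281 CPM in LEW, with Anxa1 at 2382 CPM in DA and 2197 CPM in LEW and no S100a4 UMI. Slpi stood there at 2312 CPM in DA and 1785 CPM in LEW, with a UMI in 13 of 16 DA and 7 of 10 LEW cells, S100a6 at 2312 CPM in DA and 1716 CPM in LEW and S100a11 at 1541 CPM in DA and 2197 CPM in LEW. Its cells held 3275 of the 3276 S100a9 UMIs of the DA class and 793 of the 793 of the LEW class. Calprotectin and lysozyme stood highest in it among the 10 genes, and Cst3 gave 1 and 2 UMIs there.

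A subcluster led by MHC class II genes and Clec10a (43 DA and 15 LEW cells), a lectin of conventional dendritic cells, held the highest Slpi and Cst3 of the 4. The class leaves out an unnamed subcluster led by Cxcl2, Ccl2 and Ccl24, described below, whose Slpi level was higher in both libraries. In the Clec10a subcluster Slpi stood at 12951 CPM in DA and 9275 CPM in LEW, with a UMI in 24 of 43 DA and 7 of 15 LEW cells. Cst3 stood there at 12878 CPM in DA and 7773 CPM in LEW, and this subcluster held 98.2% of the Slpi UMIs of the class. S100a11 stood at 1458 CPM in DA and 1743 CPM in LEW, S100a6 at 413 CPM in DA and 979.7 CPM in LEW and Lyz2 at 2632 CPM in DA and 6995 CPM in LEW. In the LEW library single cells gave 375 of the 1155 Slpi, 433 of the 968 Cst3 and 385 of the 871 Lyz2 UMIs. Neither S100a8 nor S100a9 was counted in it.

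A monocyte-like subcluster led by Mal and Spn, the gene of the leukocyte surface mucin CD43 (40 DA and 42 LEW cells), was the S100a4 subcluster. It held S100a4 at 4284 CPM in DA and 4521 CPM in LEW, 84.4% of the S100a4 UMIs of the class. The class leaves out the unnamed subcluster led by Cxcl2, whose S100a4 level was alike. In the Spn subcluster Lyz2 stood at 9306 CPM in DA and 9684 CPM in LEW and S100a6 at 2889 CPM in DA and 1583 CPM in LEW. Slpi there stood at 73.8 CPM in DA and 26.7 CPM in LEW and Cst3 at 111 CPM in DA and 154 CPM in LEW. The fourth subcluster, led by MHC class II genes and Fcgr3a (21 DA and 22 LEW cells), had Cst3 at 594 CPM in DA and 597 CPM in LEW and Lyz2 at 1368 CPM in DA and 274 CPM in LEW, and the remaining genes at or below 57.5 CPM. With 1 library per strain these strain values have no replicate and were not tested.

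**Figure D3:**
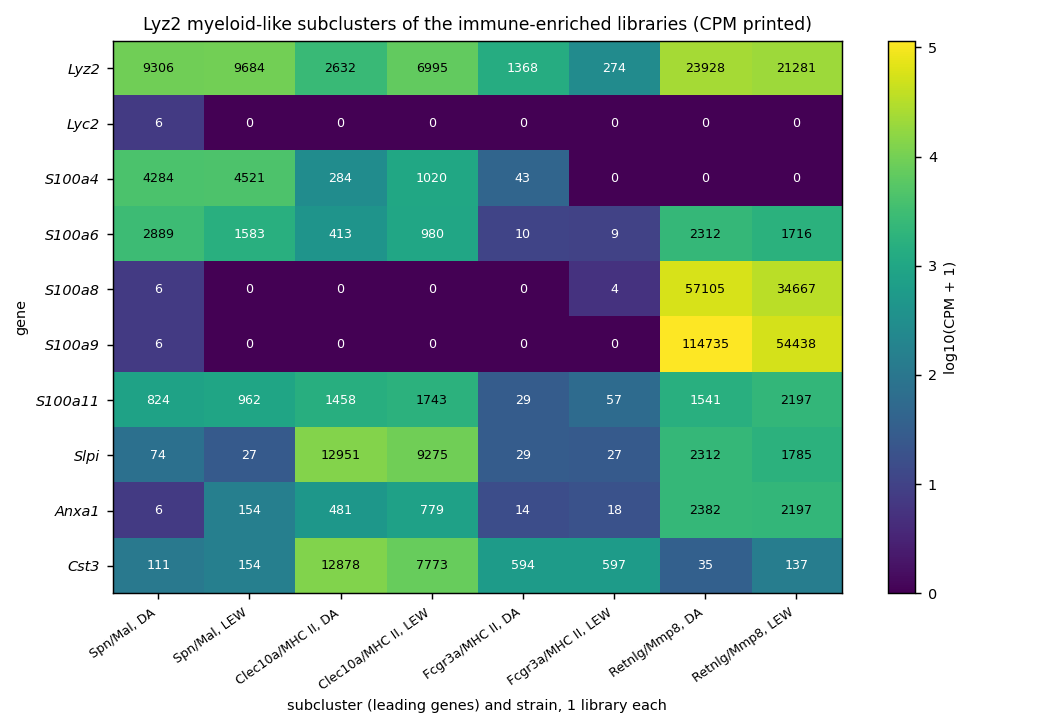
CPM of the 10 genes (rows; printed in each field, colour on a log10(CPM + 1) scale) in 4 Lyz2 myeloid-like subclusters of the immune-enriched libraries, each in the DA and the LEW library (columns). S100a8 and S100a9 stand high in the Retnlg/Mmp8 columns, Slpi and Cst3 in the Clec10a/MHC II columns and S100a4 in the Spn/Mal columns.

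Lymphoid-like cells of the immune-enriched libraries held S100 genes but little lysozyme or Slpi. Lyz2 gave 11 and 2 UMIs and Slpi 5 and 0 UMIs in DA and LEW, whereas S100a6 stood at 112 CPM in the DA library and 270.4 CPM in the LEW library and S100a4 at 92.4 CPM in the DA library and 229.6 CPM in the LEW library. Among their subclusters, NK-like cells led by Gzmk held S100a6 at 472 CPM in DA and 959.6 CPM in LEW, NK-like cells led by Ccl5 and Xcl1 at 43.2 CPM in DA and 23.7 CPM in LEW, T-like cells at 65.7 CPM in DA and 75.1 CPM in LEW, and B-like cells no S100a6 and no S100a4 UMI. A small subcluster led by histone and division genes (7 DA and 9 LEW cells) held S100a4 at 528 CPM in DA and 1162 CPM in LEW, and 80 of its 121 LEW UMIs came from 1 cell.

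The first strain question was whether the Lyz2 myeloid-like cells of DA and LEW livers differ in these genes. Lyz2 was higher in LEW, at 728 and 829.8 CPM in the DA rats and 3809.7 and 3092 CPM in the LEW rats (log2 fold change of LEW over DA 2.10, SE 0.17, edgeR adjusted p = 6.47e-06), and so was S100a4, at 179 and 121 CPM in the DA rats and 799.8 and 461 CPM in the LEW rats (log2 fold change of LEW over DA 2.03, SE 0.28, edgeR adjusted p = 0.00193). The rats of each strain did not overlap in either gene. Of the 10 genes 7 passed the filter on low counts and these 2 passed the threshold of adjusted p under 0.05, against 3.26% of all 3707 genes tested (1.43% higher in LEW and 1.83% higher in DA). S100a6 was 140.4 and 119 CPM in the DA rats and 507 and 209 CPM in the LEW rats and did not pass (adjusted p = 0.108). Slpi was 2443 and 5916 CPM in the DA rats and 925 and 804 CPM in the LEW rats and did not pass either (log2 fold change -2.32, SE 0.46, edgeR adjusted p = 0.098), with both DA rats above both LEW rats. Slpi did pass in each fit that left out 1 rat (log2 fold changes between -2.83 and -1.59) and with DESeq2 (adjusted p = 0.00572), so its call differed between fits. S100a6 passed without the first DA rat or the second LEW rat (edgeR adjusted p = 0.0129 and 1.37e-08) and with DESeq2 (adjusted p = 0.0309). S100a11, Anxa1 and Cst3 had adjusted p-values of 0.2, 0.726 and 0.654. Cst3 passed without the first DA rat or the second LEW rat (edgeR adjusted p = 2.76e-05 and 0.0226). The median log2 fold change was -0.38 over the 7 genes and -0.01 over all genes tested. Lyc2 did not pass the filter: it gave 15 and 11 UMIs in the DA rats and 0 in both LEW rats, a pooled DA level of 26.6 CPM that is at least 5.32-fold higher than the LEW floor (3 UMIs over the group).

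The Lyz2 myeloid-like TLH class held 4 subclusters. The subcluster led by Mal, Plac8 and Spn gave 20 and 8 cells in DA and 29 and 11 in LEW, of 183, 174, 85 and 105 cells, and it held the highest Lyz2, at 2961 and 1992 CPM in DA and 8731 and 15667 CPM in LEW. The subcluster led by MHC class II genes and Lsp1 held Lyz2 at 816 and 983 CPM in DA and 4043 and 5259 CPM in LEW, Slpi at 5315 and 9984 CPM in DA and 2895 and 1657 CPM in LEW and Cst3 at 4183 and 8374 CPM in DA and 4899 and 7699 CPM in LEW. In the Fcgr3a subcluster Lyz2 stood at 243 and 497 CPM in DA and 1092 and 574 CPM in LEW. In the Acp5 subcluster, whose name gene encodes tartrate-resistant acid phosphatase, it stood at 384 and 871 CPM in DA and 77.6 and 177 CPM in LEW, on 3 and 9 UMIs in LEW. The strain difference in Lyz2 therefore ran the other way in the Acp5 subcluster (log2 fold change -2.39, edgeR adjusted p = 0.0449), and it did not pass in the Fcgr3a subcluster alone (adjusted p = 0.215). It passed in the Lsp1 subcluster alone and without the Spn subcluster. All fits of single subclusters, that of the Acp5 subcluster among them, and the fit without the Spn subcluster were added after the values were seen. In Lyz2 myeloid-like TLH cells the marker lists with a higher share of UMIs in both DA rats than in both LEW rats were the conventional dendritic list at 0.0911 to 0.109% against 0.0696 to 0.0892%, the NK list at 0.0221 to 0.0266% against 0.00393 to 0.00592%, the hepatocyte list at 8.60 to 9.06% against 7.39 to 7.83% and the erythroid list at 0.0100 to 0.0135% against 0.00686 to 0.00785%. The Kupffer list at 0.535 to 0.540% against 0.777 to 1.09% and the plasmacytoid dendritic list at 0.0363 to 0.0440% against 0.0478 to 0.0633% were higher in both LEW rats, given as DA against LEW. The neutrophil list took at most 0.00392% in any rat. Of the class cells, the Acp5 subcluster gave 27.9 and 38.5% in DA and 16.5 and 19.0% in LEW, with 0 and 1 S100a4 UMIs in DA and 0 and 0 in LEW. S100a4 stood at 1079 and 1082.5 CPM in DA and 2019 and 2079 CPM in LEW in the Spn subcluster. It stood at 206 and 158 CPM in DA and 762 and 829 CPM in LEW in the Lsp1 subcluster. In the Fcgr3a subcluster it stood at 24.3 and 72.5 CPM in DA and 166 and 116 CPM in LEW. The part of the marker lists and of this make-up in the Lyz2 and S100a4 differences was not tested.

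**Figure D4:**
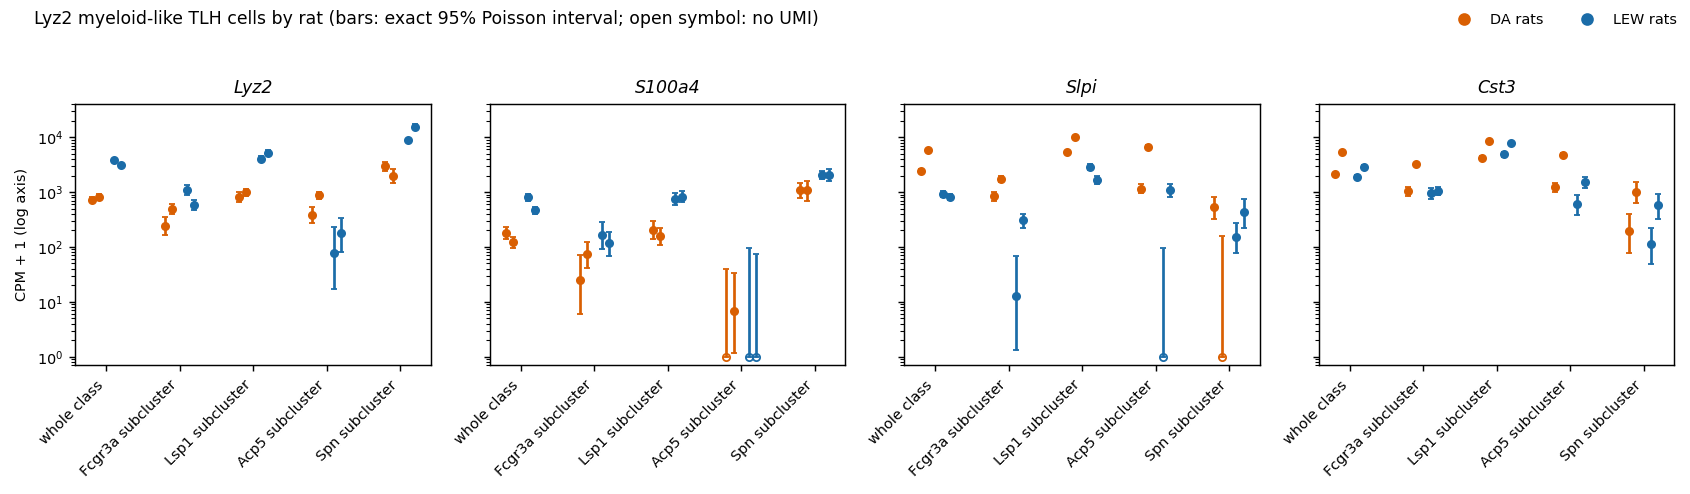
CPM + 1 on a log axis of Lyz2, S100a4, Slpi and Cst3 in Lyz2 myeloid-like TLH cells of each rat, for the whole class and for its 4 subclusters, with exact 95% Poisson intervals; open points had no UMI. Both LEW rats stand above both DA rats for Lyz2 and S100a4 in the whole class, and below them for Lyz2 in the Acp5 subcluster.

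In Kupffer-like TLH cells Lyc2 was lower in LEW, at 31.6 and 27.3 CPM in the DA rats and 6.44 and 0 CPM in the LEW rats (log2 fold change of LEW over DA -3.09, SE 0.58, edgeR adjusted p = 0.00554), and S100a8 was higher in LEW, at 19.0 and 6.97 CPM in the DA rats and 29.4 and 38.4 CPM in the LEW rats (log2 fold change of LEW over DA 1.51, SE 0.39, edgeR adjusted p = 0.0327). These were 2 of 7 listed genes tested, against 7.23% of 6641 genes (3.37% higher in LEW and 3.85% higher in DA). Lyz2 was 42.2 and 13.9 CPM in the DA rats and 48.7 and 69.5 CPM in the LEW rats, with both LEW rats above both DA rats, and did not pass (adjusted p = 0.342). The S100a8 call was lost with DESeq2 (adjusted p = 0.342) and without the second DA rat, the first LEW rat or the second LEW rat (edgeR adjusted p = 0.259, 0.12 and 0.0611). It rests on 12 to 37 UMIs per rat. The subcluster with the highest S100a8, led by Marco, Lgals3 and Ccl6, gave 68 of 449 and 74 of 562 cells in DA and 78 of 313 and 63 of 304 in LEW. The part of this make-up in the S100a8 difference was not tested. Lyc2 gave 30, 47, 7 and 0 UMIs and passed the filter on low counts through the DA rats alone, so its call had to follow their higher level. In Kupffer-like TLH cells the marker lists with a higher share of UMIs in both DA rats than in both LEW rats were the neutrophil list at 0.0000581 to 0.000105% against 0%, the NK list at 0.00371 to 0.00822% against 0.00175 to 0.00228%, the hepatocyte list at 8.95 to 10.1% against 7.40 to 8.26%, the endothelial list at 0.0420 to 0.0595% against 0.0271 to 0.0327% and the cholangiocyte list at 0.0117 to 0.0157% against 0.00924 to 0.0114%. The Kupffer list at 1.51 to 1.81% against 2.55 to 2.78%, the monocyte and macrophage list at 0.646 to 0.673% against 0.829 to 0.843%, the plasmacytoid dendritic list at 0.0313 to 0.0378% against 0.0521 to 0.0554% and the B list at 0.00221 to 0.00319% against 0.00405 to 0.0651% were higher in both LEW rats, given as DA against LEW. Their part in the Lyc2 and S100a8 differences was not tested. The neutrophil shares lie at the floor of counting, and no strain difference is read from them.

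In lymphoid-like TLH cells Slpi was lower in LEW, at 63.3 and 25.8 CPM in the DA rats and 4.08 and 12.9 CPM in the LEW rats (log2 fold change of LEW over DA -2.57, SE 0.60, edgeR adjusted p = 0.0146), 1 of 6 listed genes tested against 3.14% of 3890 genes (1.36% higher in LEW and 1.77% higher in DA). Slpi gave 29, 10, 2 and 4 UMIs and passed the filter through the DA rats alone, so its call had to follow their higher level. The call was lost without the first DA rat or the first LEW rat (edgeR adjusted p = 0.623 and 0.269), Slpi had no adjusted p with DESeq2 and was not tested without the 6% highest Scrublet scores, and these cells gave 5 and 0 Slpi UMIs in the immune-enriched DA and LEW libraries. Lyc2 was 26.2 and 36.1 CPM in the DA rats and 4.08 and 3.22 CPM in the LEW rats and did not pass (adjusted p = 0.0519). It gave 12, 14, 2 and 1 UMIs and also passed the filter on low counts through the DA rats alone. It passed without the filter, with the replicate block and with the crossed block (edgeR adjusted p = 0.0069, 0.0148 and 0.0165), and no call is read from these fits. In lymphoid-like TLH cells the marker lists with a higher share of UMIs in both DA rats than in both LEW rats were the conventional dendritic list at 0.0253 to 0.0387% against 0.0145 to 0.0187%, the B list at 0.155 to 0.275% against 0.105 to 0.120%, the cholangiocyte list at 0.0133 to 0.0152% against 0.00869 to 0.00980% and the erythroid list at 0.00594 to 0.0138% against 0.00451 to 0.00470%. The monocyte and macrophage list at 0.343 to 0.407% against 0.453 to 0.474%, the T list at 0.0245 to 0.0341% against 0.0578 to 0.0740%, the NK list at 0.907 to 0.927% against 1.44 to 1.54% and the mesenchymal list at 0.0487 to 0.0498% against 0.0590 to 0.0785% were higher in both LEW rats, given as DA against LEW. Their part in the Slpi and Lyc2 differences was not tested. S100a4 was 52.4 and 41.3 CPM in the DA rats and 73.5 and 86.9 CPM in the LEW rats, with no overlap between strains and an adjusted p of 0.284.

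In hepatocyte-like TLH cells all 10 genes passed the filter and Lyc2 alone passed the edgeR test, against 4.05% of 9856 genes (1.91% higher in LEW and 2.14% higher in DA). Among the alternatives given below, 2 listed genes passed with DESeq2, without the filter, with deeper cells and with the crossed pairing. Lyc2 was 48.0 and 40.4 CPM in the DA rats and 7.65 and 5.04 CPM in the LEW rats (log2 fold change of LEW over DA -2.75, SE 0.21, edgeR adjusted p = 0.000753), so that each DA rat was over 5 times each LEW rat. The 412, 511, 82 and 35 UMIs behind these levels are the most of any Lyc2 comparison in TLH cells. The clusters in this class differed in make-up by strain. The largest gave 1226 and 1157 cells in DA and 1787 and 1615 in LEW, and one led by Akr1c1 and Alas1 gave 383 and 475 in DA and 59 and 32 in LEW. The part of this make-up in the Lyc2 difference was not tested. Slpi was 25.5 and 22.9 CPM in the DA rats and 4.66 and 12.9 CPM in the LEW rats and did not pass (adjusted p = 0.197). Cst3 was 96.2 and 106 CPM in the DA rats and 85.2 and 131 CPM in the LEW rats, with overlapping strains. In hepatocyte-like TLH cells the marker lists with a higher share of UMIs in both DA rats than in both LEW rats were the monocyte and macrophage list at 0.0970 to 0.113% against 0.0586 to 0.0747%, the conventional dendritic list at 0.0273 to 0.0321% against 0.0177 to 0.0178%, the plasmacytoid dendritic list at 0.00434 to 0.00450% against 0.00414 to 0.00421%, the NK list at 0.00283 to 0.00328% against 0.00182 to 0.00225%, the endothelial list at 0.0207 to 0.0209% against 0.0116 to 0.0167% and the cholangiocyte list at 0.0210 to 0.0221% against 0.0163 to 0.0179%. The neutrophil list at 0.0000395 to 0.0000583% against 0.000177 to 0.000216% and the mesenchymal list at 0.0436 to 0.0470% against 0.0629 to 0.0885% were higher in both LEW rats, given as DA against LEW. The part of these lists in the Lyc2 difference was not tested. The neutrophil shares rest on few UMIs, and Lcn2, a gene of that list, was counted here in the LEW rats alone. No strain difference in neutrophil RNA is read from them.

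Lyc2 was also lower in LEW in hepatocyte-like nuclei, which came from additional livers. Lyc2 was 65.4 and 92.7 CPM in the DA rats and 18.7 and 13.8 CPM in the LEW rats (log2 fold change of LEW over DA -2.22, SE 0.33, edgeR adjusted p = 0.00537), 1 of 4 listed genes tested against 1.35% of 10653 genes (0.582% higher in LEW and 0.77% higher in DA). With nuclei of at least 1500 UMIs alone its edgeR adjusted p was 0.0569, with a log2 fold change of -1.87. In hepatocyte-like nuclei the marker lists with a higher share of UMIs in both DA rats than in both LEW rats were the monocyte and macrophage list at 0.170 to 0.183% against 0.110 to 0.134%. The Kupffer list at 0.0111 to 0.0116% against 0.0152 to 0.0157% and the mesenchymal list at 0.0204 to 0.0221% against 0.0290 to 0.0322% were higher in both LEW rats, given as DA against LEW. Their part in the Lyc2 difference was not tested. Lyz2 lay in the other direction there, at 0.908 and 1.81 CPM in the DA rats and 5.82 and 3.38 CPM in the LEW rats, and did not pass (adjusted p = 0.188). In Kupffer-like nuclei 0 of 2 listed genes tested passed the edgeR test, 0 had an unadjusted p under 0.05 and 0 passed with DESeq2, against 1.17% of 4280 genes (0.421% higher in LEW and 0.748% higher in DA). Lyc2 was 41.0 and 74.4 CPM in the DA rats and 45.5 and 10.6 CPM in the LEW rats in these nuclei, on 3 to 15 UMIs, and the strains overlapped.

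In endothelial-like TLH cells Lyc2 (38.5 and 40.1 CPM in the DA rats and 5.51 and 10.1 CPM in the LEW rats; log2 fold change of LEW over DA -2.51, SE 0.35, edgeR adjusted p = 0.00199) and Slpi (36.6 and 22.7 CPM in the DA rats and 1.57 and 8.62 CPM in the LEW rats; log2 fold change of LEW over DA -2.85, SE 0.56, edgeR adjusted p = 0.0237) were lower in LEW, 2 of 6 listed genes tested against 3.01% of 7405 genes (1.42% higher in LEW and 1.59% higher in DA). Slpi gave 56, 60, 2 and 6 UMIs there, and Lyc2 gave 59, 106, 7 and 7. In both genes 1 of the 2 LEW rats lay under the count the filter asks for. Without the first LEW rat the edgeR adjusted p was 0.136 for Lyc2 and 0.322 for Slpi. In the immune-enriched libraries the endothelial-like cells held no Lyc2 UMI, and 0 and 3 Slpi UMIs in DA and LEW. In endothelial-like TLH cells the marker lists with a higher share of UMIs in both DA rats than in both LEW rats were the monocyte and macrophage list at 0.107 to 0.121% against 0.0701 to 0.0910%, the conventional dendritic list at 0.0375 to 0.0477% against 0.0326 to 0.0355%, the NK list at 0.00366 to 0.00404% against 0.00149 to 0.00345% and the cholangiocyte list at 0.0135 to 0.0178% against 0.0111 to 0.0131%. The Kupffer list at 0.0850 to 0.0910% against 0.0976 to 0.112%, the neutrophil list at 0.000113 to 0.000261% against 0.000393 to 0.000862%, the plasmacytoid dendritic list at 0.00782 to 0.00797% against 0.00949 to 0.0103%, the T list at 0.000653 to 0.00121% against 0.00134 to 0.00187%, the endothelial list at 0.401 to 0.473% against 0.480 to 0.550% and the mesenchymal list at 0.0709 to 0.0820% against 0.0952 to 0.115% were higher in both LEW rats, given as DA against LEW. Their part in the Lyc2 and Slpi differences was not tested, and the neutrophil shares rest on few UMIs.

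In mesenchymal-like TLH cells Lyc2 was lower in LEW (32.1 and 24.5 CPM in the DA rats and 5.33 and 3.55 CPM in the LEW rats; log2 fold change of LEW over DA -2.60, SE 0.64, edgeR adjusted p = 0.0288) and S100a6 was higher in LEW (19.7 and 25.1 CPM in the DA rats and 69.3 and 99.5 CPM in the LEW rats; log2 fold change of LEW over DA 1.80, SE 0.32, edgeR adjusted p = 0.00196), 2 of 6 listed genes tested against 2.35% of 5372 genes (0.968% higher in LEW and 1.38% higher in DA). Lyc2 passed the filter through the DA rats alone, on 26, 40, 2 and 1 UMIs. It did not pass the test without the second DA rat, the first LEW rat or the second LEW rat (edgeR adjusted p = 0.174, 0.12 and 0.212), with the crossed block or without the 6% highest Scrublet scores (edgeR adjusted p = 0.0747 and 0.0768), and S100a6 did not pass without the second LEW rat (edgeR adjusted p = 0.0932) or with DESeq2 (adjusted p = 0.0538). In mesenchymal-like nuclei, not tested for strain, S100a6 was 171 and 112 CPM in the DA rats and 48.4 and 25.2 CPM in the LEW rats, with both DA rats above both LEW rats, the reverse of the TLH order. In mesenchymal-like nuclei the marker lists with a higher share of UMIs in both DA rats than in both LEW rats were the conventional dendritic list at 0.0303 to 0.0330% against 0.0256 to 0.0272% and the mesenchymal list at 1.16 to 1.26% against 0.766 to 0.784%. The neutrophil list at 0 to 0.00107% against 0.00252 to 0.00559% and the hepatocyte list at 5.46 to 6.68% against 8.27 to 8.42% were higher in both LEW rats, given as DA against LEW. In mesenchymal-like TLH cells the marker lists with a higher share of UMIs in both DA rats than in both LEW rats were the NK list at 0.00747 to 0.0123% against 0.00284 to 0.00506%, the B list at 0.00190 to 0.00271% against 0.00142 to 0.00160%, the hepatocyte list at 10.6 to 11.1% against 9.96 to 10.4%, the mesenchymal list at 1.05 to 1.098% against 1.02 to 1.03% and the cholangiocyte list at 0.0149 to 0.0176% against 0.00853 to 0.00986%. The Kupffer list at 0.161 to 0.317% against 0.381 to 0.534% and the plasmacytoid dendritic list at 0.00974 to 0.0146% against 0.0163 to 0.0189% were higher in both LEW rats, given as DA against LEW. The part of these lists in the Lyc2 and S100a6 values was not tested, and the neutrophil shares in nuclei rest on few UMIs.

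Across the 6 TLH classes Lyc2 was lower in every LEW rat than in every DA rat. Of its calls, both LEW rats reached the filter's count in hepatocyte-like cells and 1 in endothelial-like cells, and in Kupffer-like and mesenchymal-like cells neither did, so no repetition is read from the latter. The hepatocyte list that reached all TLH classes was itself lower in both LEW rats than in both DA rats in Lyz2 myeloid-like, Kupffer-like and mesenchymal-like cells, the direction of Lyc2, and overlapped between strains in lymphoid-like (9.53 to 11.6% in DA and 9.45 to 9.69% in LEW) and endothelial-like cells (11.2 to 12.6% in DA and 10.6 to 12.1% in LEW). Its part in the repeated Lyc2 difference was not tested.

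The neighbouring genes of these pathways were counted by lists, beside the 1.17 to 7.23% of all genes that were called over the 8 fits. The list of 9 other S100 genes also holds S100pbp, the gene of an S100-binding protein and no S100 gene itself. Of these 9, 3 to 5 were tested in each TLH class and 0 of 28 tests over cells and nuclei passed with edgeR, 5 had an unadjusted p under 0.05 and 0 passed with DESeq2. Of 7 other cystatins, 1 or 2 were tested in each fit, and of these 12 tests 0 passed with edgeR, 0 had an unadjusted p under 0.05 and 0 passed with DESeq2. Of 7 other annexins, 2 of 48 tests passed, a share near that of all genes, both for Anxa3. It was 194 and 187 CPM in DA and 414 and 620.4 CPM in LEW in Lyz2 myeloid-like cells (log2 fold change of LEW over DA 1.40, SE 0.23, edgeR adjusted p = 0.00409) and 482 and 461 CPM in DA and 1075 and 1035 CPM in LEW in Kupffer-like cells (log2 fold change of LEW over DA 1.13, SE 0.16, edgeR adjusted p = 0.000317). Of 8 cathepsins, the targets of cystatin C among them, 1 of 54 tests passed, Ctsh in Kupffer-like cells, where 7.23% of all genes did, at 497 and 602 CPM in DA and 876 and 978 CPM in LEW (log2 fold change of LEW over DA 0.72, SE 0.17, edgeR adjusted p = 0.0147). Anxa3 and Ctsh were thus higher in both LEW rats. So was the Kupffer list in Lyz2 myeloid-like and Kupffer-like TLH cells, as given above, and Anxa3 was among the genes that led Kupffer-like clusters. The part of these markers in the Anxa3 and Ctsh differences was not tested.

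The other WAP-domain genes, relatives of Slpi by this protein domain, gave the most calls of these lists. Of 24 tests 8 passed with edgeR, all higher in DA, and 5 with DESeq2, beside the 0.748 to 3.85% of all genes called higher in DA over the 8 fits. The 8 edgeR calls were all of Wfdc21 or Wfdc2, repeated over TLH classes of the same rats. They are therefore not separate results, and no excess of the list is read from them. Among these 8, Wfdc21 in Lyz2 myeloid-like cells passed the filter through the DA rats alone. Its call there had to follow their higher level, and no repetition is read from it. Wfdc21 was lower in LEW in all 6 TLH classes, by log2 fold changes between -1.57 and -2.33, and was 144 and 189 CPM in DA and 49.2 and 62.0 CPM in LEW in hepatocyte-like cells (edgeR adjusted p = 0.00543). Wfdc2 was lower in LEW in Kupffer-like cells (72.8 and 101 CPM in DA and 38.6 and 43.6 CPM in LEW; edgeR adjusted p = 0.00334) and endothelial-like cells (123 and 143 CPM in DA and 60.6 and 80.5 CPM in LEW; edgeR adjusted p = 0.0183). With DESeq2 neither Wfdc2 call passed (adjusted p = 0.105 and 0.0754), and Wfdc21 passed in 5 classes and had no adjusted p in lymphoid-like cells. In hepatocyte-like nuclei Wfdc21 did not pass (edgeR adjusted p = 0.228). The hepatocyte markers set beside Lyc2 above reached the same TLH classes, and their part in the repeated Wfdc21 difference was not tested. Of 11 neutrophil granule genes, Lcn2 (lipocalin 2) alone passed the filter, in hepatocyte-like TLH cells, with 0 and 0 UMIs in the DA rats and 17 and 13 in the LEW rats. It passed the filter through the LEW rats alone, and no call is read from it. Of 4 receptors of calprotectin and annexin A1, 1 was tested, in Kupffer-like cells, and it did not pass with edgeR or DESeq2 and had an unadjusted p above 0.05.

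By Pearson correlation of log2(CPM + 10) over 36 sums of 6 classes in the 6 cell libraries, the genes most like each listed gene were sought among 5450 genes. Sums of 1 library share its depth and its free RNA, so the values are descriptions. Lyz2 was most like P2ry6 (0.92), Clec7a (0.92) and Ccr1 (0.92), receptors of myeloid cells, and Lyc2 was most like Mlc1 (0.94), Ces2e (0.92) and Acad10 (0.90). Slpi was most like AC120486.10 (0.95), Xcr1 (0.92) and Clec9a (0.92), the last 2 being markers of conventional dendritic cells, and Cst3 like Ppt1 (0.84), Eif4ebp1 (0.83) and Ccdc88a (0.82). S100a4 was most like Lsp1 (0.95), Cd44 (0.93) and RT1-Da (0.92), S100a11 like Ciita (0.88), S100a4 (0.88) and Lsp1 (0.86), and S100a6 like Anxa2 (0.90), Anxa1 (0.89) and S100a11 (0.86). Anxa1 was most like S100a6 (0.89), Tspan8 (0.86) and Prr15 (0.85). S100a8 had AABR07038983.1 (0.90), S100a9 (0.89) and LOC681325 (0.89), and S100a9 had Ifit1bl (0.89), S100a8 (0.89) and AABR07041096.1 (0.88).

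In the Wistar sections, where a spot covers several cells, Cst3 and Lyc2 were the most counted of the 10 genes, at 194 and 193 CPM and 56.1 and 64.7 CPM in the 2 sections. Lyc2 was seen in 50.8 and 56.6% of spots and Lyz2, at 8.07 and 10.7 CPM, in 9.81 and 12.2%. Slpi stood at 35.2 and 30.3 CPM, and S100a8 (1.45 and 2.38), S100a9 (0.987 and 1.23), S100a11 (1.34 and 1.15), S100a4 (2.64 and 2.33), Anxa1 (4.03 and 3.68) and S100a6 (5.95 and 5.11) stayed below 6 CPM. Lyc2 was thus above Lyz2 in both sections, the order of hepatocyte-like cells in each cell and nuclei library other than the second LEW TLH rat. Fewer cells of a type and less RNA per cell cannot be told apart in spots.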

How the data were processed

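The authors deposited UMI counts per gene and barcode from Cell Ranger 3.1.0 (Space Ranger 1.1.0 for the sections) on a custom Rnor_6.0 and Ensembl 98 reference. The deposited cell and nuclei tables hold no barcode under 325 UMIs and more barcodes than the study's cell filters leave. TLH and immune-enriched tables name no genes here, and names were taken by row order from the nuclei tables (Spearman correlation of library sums with nuclei across genes 0.899 to 0.924 row by row, against 0.264 to 0.280 one row apart). Limits on UMIs and mitochondrial percentage followed the study: UMI minimums were 1500 (first DA rat) and 2000 in TLH, with 2000 in place of the stated 1500 for LEW (1500 gave 12124 and 7857 cells), and 1000 in the other cell and nuclei libraries. Mitochondrial maximums were 30 and 20% in the DA and 40% in both LEW TLH rats, 50% in immune-enriched cells and 10% in nuclei. In TLH cells this limit thus differed with strain, and its part in the strain differences was not tested.

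Counts were normalized with sctransform 0.4.2 without the 10 genes, and 50 components, 15 of them corrected across libraries, were clustered at 20 neighbours (resolution 0.6, and 2.5 for nuclei). Immune clusters were clustered again (resolution 1). A cluster was named where at least 3 markers of a class were among its 30 leading genes against all other cells. Clusters left unnamed were compared with the named cells of other classes than hepatocyte-like, over 200 leading genes. They were called hepatocyte-like where at least 3 hepatocyte markers, and more than of any other class, were among these. The largest TLH cluster (5785 cells) was named by this looser rule. Subclusters with more leading markers of another class, or myeloid ones led by Siglech or Cd79b, stayed unnamed, a choice made after the counts were seen. Scrublet (scanpy 1.11.5) called 87 of 39401 cells (0.221%) and was taken not to have worked, so no cell was removed. In the nuclei libraries 8 to 24 barcodes were shared by each pair.

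UMIs were summed per rat and class (at least 10 cells per rat), filtered by expression and tested with edgeR 4.0.16 (quasi-likelihood, TMM, two-sided, Benjamini-Hochberg), LEW against DA. The test was tested on simulated counts with known changes. Rats are the replicates, as the labels number them. A group without counts was given a floor of 3 counts, and intervals are exact 95% intervals. The members, lists and tests were chosen with earlier results of these data known. All 10 genes were named, with the 3 genes most like each and the pathway genes past the threshold. Alternatives were DESeq2 1.42.0, RLE size factors, no filter, leaving out each rat, deeper cells, other clusterings and replicate number as a block.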

Additional observations from a re-analysis of the deposited data

Results flagged for a closer look

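Cst3 in TLH cells lay in opposite directions between strains in 2 pairs of classes. It was 279 and 330.3 CPM in the DA rats and 349 and 480.5 CPM in the LEW rats in Kupffer-like cells and 133 and 152 CPM in the DA rats and 87.8 and 132 CPM in the LEW rats in lymphoid-like cells, log2 ratios of LEW over DA means of 0.44 and -0.38 that differ by 0.82. Mesenchymal-like cells, at 454 and 519.8 CPM in the DA rats and 568 and 583 CPM in the LEW rats, had a ratio of 0.24, which differs from the lymphoid ratio by 0.62. Every LEW rat was above every DA rat in Kupffer-like and mesenchymal-like cells and below in lymphoid-like cells. The difference between classes was not tested, and Cst3 passed the edgeR test in none of them (adjusted p = 0.212, 0.502 and 0.733). Hepatocyte markers took 8.95 and 10.1% of UMIs in DA and 7.40 and 8.26% in LEW in Kupffer-like cells, and 9.53, 11.6, 9.45 and 9.69% in lymphoid-like cells. In lymphoid-like cells the conventional dendritic list was higher in both DA rats and the monocyte and macrophage list in both LEW rats. In mesenchymal-like cells the hepatocyte list was higher in both DA rats and the Kupffer list in both LEW rats. These and the other lists that stood apart are given above, and their part in this pattern was not tested.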

How the results depend on the processing

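The limits are depth and number of rats: with 2 rats per strain, leaving out 1 rat changed calls, and calls of Kupffer-like S100a8 and lymphoid-like Slpi, on few UMIs, were lost in that way. Of the 10 genes, 9 in TLH cells, 7 in immune-enriched cells and 6 in nuclei were highest in Lyz2 myeloid-like cells, and 7 to 9, 5 to 8 and 5 to 6 over the alternative cell sets. The genes were chosen by their levels over classes and no share over all genes was taken, so these counts are a description. In nuclei S100a4, S100a6, S100a11 and Cst3 overlapped the mesenchymal-like class. There S100a4, S100a6 and S100a11 rested on 8, 7 and 5 UMIs. The TLH count holds S100a8 and S100a9, which rest on 1 cell of the second DA rat: without its UMIs S100a9 had none in the class, and S100a8 was below its Kupffer-like level in every rat. Over the reported and alternative fits the log2 fold change of Lyc2 ran from -3.09 to -2.51 in hepatocyte-like TLH cells. In hepatocyte-like nuclei it ran from -2.61 to -1.87. In Lyz2 myeloid-like TLH cells Lyz2 ran from -2.39 to 2.325, where the Acp5 subcluster alone ran the other way. There S100a4 ran from 1.28 to 2.365, Slpi from -2.90 to -1.59 and Cst3 from -1.59 to 0.106. The fits of a platform share the same rats, and strain levels were known when the genes were chosen. These ranges are therefore no repeated support for a strain difference.

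Directions turned in 3 places in Lyz2 myeloid-like TLH cells: Lyz2 in the Acp5 subcluster alone (log2 fold change -2.39), and without the second DA rat Anxa1 (0.50; -0.85 to 0.50 over the fits without 1 rat) and Cst3 (0.11; -1.20 to 0.11). The genes called and, after a slash, the listed genes called were as follows in TLH cells. DESeq2 gave 59/4 in Lyz2 myeloid-like (121/2 in the reported fit), 177/0 in Kupffer-like (480/2), 35/0 in lymphoid-like (122/1), 2 listed in hepatocyte-like (399/1), 116 in endothelial-like (223/2) and 55/0 in mesenchymal-like cells (126/2). It gave no adjusted p for Lyc2 in Kupffer-like cells. Without the filter the counts were 244/5, 2 listed in lymphoid-like, 1143/2 in hepatocyte-like, 493 in endothelial-like and 279 in mesenchymal-like cells, and 196 and 512/2 in Kupffer-like and hepatocyte-like nuclei (50/0 and 144/1). Deeper cells gave 202/2 in hepatocyte-like, 63/0 in endothelial-like and 81/0 in mesenchymal-like cells, and 6 and 70/0 in the nuclei, and mean Lyc2 shares of 7.25% in Lyz2 myeloid-like and 87.3% in hepatocyte-like DA TLH cells. Without the 6% highest Scrublet scores they were 73/0 in lymphoid-like and 77/1 in mesenchymal-like cells. The Fcgr3a, Lsp1 and Acp5 subclusters alone gave 56/0, 39 and 17/1.

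Leaving out 1 rat gave 98 to 224 genes and 3 to 7 listed genes in Lyz2 myeloid-like, 169 to 793 and 1 to 3 in Kupffer-like, 63 to 280 and 0 to 1 in lymphoid-like, 54 to 360 and 1 to 2 in hepatocyte-like, 29 to 452 and 0 to 2 in endothelial-like and 56 to 255 and 0 to 1 in mesenchymal-like cells, and 66 to 168 and 119 to 282 genes in the nuclei. The lone rat is then assumed to vary like the other strain, and the cause of these moves was not tested.

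The deviations of rats with the same number had correlations of -0.163 to 0.0763. With 2 rats per strain, a negative value for the same numbers is a positive one for the crossed numbers. This check therefore cannot show whether libraries shared a batch, and no pairing is read from the number. With it as a replicate block 23 genes were called in Lyz2 myeloid-like, 2 listed in lymphoid-like, 189 in hepatocyte-like, 397 in endothelial-like and 233 in mesenchymal-like TLH cells, and 531/2 in hepatocyte-like nuclei. The crossed pairing gave 4 listed, 875, 233/2, 791/2 and 1 listed gene in Lyz2 myeloid-like, Kupffer-like, lymphoid-like, hepatocyte-like and mesenchymal-like TLH cells, and 149 and 338 genes in the nuclei. Not run, for want of 10 cells in a rat, were the strain fit in Lyz2 myeloid-like nuclei (7 to 15), the Spn subcluster alone (8 to 29) and deeper lymphoid-like cells (8 to 45).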

Other observations

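Some immune-enriched cells stood outside the named classes and held much Lyz2 and Slpi. A subcluster of 12 DA and 8 LEW cells led by Cxcl2, Ccl2 and Ccl24, chemokine genes, and Fcnb, a ficolin of monocytes, stayed unnamed because 2 markers led it. Lyz2 stood there at 17481 CPM in DA and 33105 CPM in LEW, Slpi at 18716 CPM in DA and 20100.2 CPM in LEW, S100a6 at 4002 CPM in DA and 6130.0 CPM in LEW and S100a4 at 4111 CPM in DA and 4572 CPM in LEW. Cst3 was 632 CPM in DA and 389 CPM in LEW. Of the 1187 LEW Slpi UMIs, 836 came from 1 cell. In these cells Slpi and Lyz2 had the highest levels of the genes given here, and in the Clec10a subcluster Slpi and Cst3 did. The Clec10a subcluster also held Lyz2, at 2632 CPM in DA and 6994.5 CPM in LEW. All of these levels are sums over cells, and pairing within single cells was not tested.

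Plasmacytoid dendritic-like cells (41 DA and 16 LEW) held Cst3 at 623 CPM in the DA library and 1179 CPM in the LEW library and S100a11 at 325 CPM in the DA library and 272 CPM in the LEW library, with Lyz2 at 29.8 and 148 CPM and 0 and 1 Slpi UMIs. In erythroid-like cells all 54 Lyz2 and all 34 S100a4 UMIs of the DA library came from 1 cell each. These values have 1 library per strain and no test.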
